A study of Mus musculus with 20 samples.

Results

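The genes that lie around Ticam1 on mouse chromosome 17 were compared in macrophages of 4 genotypes. Ticam1 encodes TRIF, and its array probe lies at chr17:56409265-56409324 (mm9, minus strand). All non-control probes placed between 41400000 and 71400000 of chromosome 17 (mm9), 15 Mb to each side of Ticam1, were taken. Ticam1 itself, C3, Vegfa, Tnfrsf21 and names that start with Tnfsf, Trim, Slc, Zfp or Gpr were left out, which removed 30 of the 392 probes there. This gave 362 flanking probes under 293 names, of 39429 probes in all and 1792 on chromosome 17. Of these, 285 probes for 240 genes were kept as measured, meaning that 3 or more arrays had the probe well above background in Cy3 or Cy5, of 28388 such probes for 22033 genes in the whole series. The other 77 flanking probes were not tested. The rest of chromosome 17 gave 1075 kept probes.

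The cells were macrophages grown for 6 days from bone marrow of C57BL/6 mice in medium with M-CSF from L929 cells, then replated and kept in serum-free medium. One portion was given 200 ng/mL of LPS, a cell wall component of Gram-negative bacteria, and another was left untreated, for 1, 2, 4, 8 or 16 h. The groups were wild type (WT), MyD88 -/- KO (MYD88), TRIF -/- KO (TRIF) and MyD88/Trif -/- double KO (dko), with 5 arrays each, 1 per hour. Each 2-colour array held untreated RNA in Cy3 and LPS-treated RNA in Cy5 of the same group and hour, except the MYD88 array of 2 h, whose dyes were swapped and which was left out, so that 19 arrays gave untreated levels. The labels call the mice age and gender matched. They state neither how the alleles were made, nor how often the lines were crossed to C57BL/6, nor whether arrays came from separate animals or cultures, so p-values measure only the spread between these samples.

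TRIF and MyD88 are the adapters that carry the signal of the LPS receptor Tlr4, and MyD88 also serves most other Toll-like receptors. When an allele is made in cells of one mouse strain and crossed into another, a stretch of donor chromosome stays linked to the altered gene, and its genes can differ in sequence or level without any effect of the allele. Such passenger differences would be present in untreated cells, at every hour, and close to the altered gene. The comparison therefore asked whether untreated levels of the flanking genes differed between the TRIF or dko arrays and the WT and MYD88 arrays, and whether they did so more than elsewhere on the chromosome. The stretch also holds the Trem gene cluster, a family of immunoglobulin-like receptors of myeloid cells and platelets.

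The probes that the results turn on are shown by a stretch of 30 bases, 5′ to 3′, because their sequence bears on what each of them can measure. Each probe is 60 bases long, and is counted here as 1 probed stretch of the chromosome. Capitals mark bases shared with the probe of another gene, bases shared by both probes of Foxp4, or a triplet repeat, and stretches wholly in lower case are the centre of a probe. Positions are mm9.
Treml1, chr17:48506380-48506409, plus strand: cagtcagggagtggtgctccgatatgattg
Pla2g7, chr17:43731760-43731789, plus strand: agatcaaggtcgcctcgacactgtttggat
Pla2g7, chr17:43749047-43749076, plus strand: ttttttaaatatacactgtactgtaggata
Satb1, chr17:51879152-51879181, minus strand: acaacatgagaagtccaccttgtgttcact
Epb41l3, chr17:69639250-69639279, plus strand: actacactgtcaactgtgtcacagcccgtc
Nfkbie, chr17:45700015-45700044, plus strand: aggagaagaaataaatcaacatactttccg
Foxp4, chr17:48004749-48004778, minus strand: tccttcCCTCTCCCAGTTAAAACGGATGAC
Foxp4, chr17:48004743-48004772, minus strand: CCTCTCCCAGTTAAAACGGATGACCAAAGA
Trem1, chr17:48385860-48385889, plus strand: cctgTGTTGTTGTTGTTGTTGTTGTTGTTG
Gm9706, chr17:46543907-46543936, minus strand: GCCAGTGTTGGTTATAAAAGATGATGcaat
Isg15, chr4:155573649-155573678, minus strand: GCCAGTGTTGGTTATAAAAGATGATGgggg

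The probe of Gm9706 thus holds letters of a probe for Isg15, an interferon-induced ubiquitin-like gene on chromosome 4, and the 2 probes share 35 bases in all. The Trem1 probe holds a run of 13 repeats of 3 bases, and no other kept flanking probe held 8 or more. Of the 285 kept flanking probes, 23 shared at least 20 bases with a probe of another name. Whether the signal of such a probe is that of its own gene alone was not tested.

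On each array 52.8% to 69.6% of spots were well above background. Levels below are normalised log2 intensities of the Cy3 channel, and a difference of 1 is a 2-fold change. The Ticam1 level was 7.23, 7.28, 7.29, 7.26 and 7.35 at the 5 hours in dko, against 10.48 to 10.95 in WT and 10.38 to 10.6 in MYD88. In the arrays labelled TRIF it was 10.58, 10.49, 10.91, 10.85 and 11.2, within or above the WT range. The labels do not say which part of the gene is altered, so the probe does not check the TRIF label, and TRIF below stands for the arrays labelled so. The Myd88 probe, at chr9:119245322-119245381, read 13.9 to 14.21 in MYD88 and 13.88 to 14.22 in dko, against 13.85 to 14.82 in WT, and does not check those labels either. Untreated cells of TRIF and dko also differed from WT and MYD88 in sex-linked genes: Eif2s3y, on the Y chromosome, stood at 14.22 ± 0.24 (SD, n = 5) in TRIF and 14.21 ± 0.19 (SD, n = 5) in dko, and was not well above background on any WT or MYD88 array. The groups compared therefore differ in sex-linked expression as well as in genotype, and these cannot be told apart. All 6 macrophage markers were well above background on every array, with a summed level between 19.3 and 19.92. Slides held 4 arrays each. WT, TRIF and MYD88 of 1 and 2 h were scanned on one day, and dko and MYD88 of 4 to 16 h on the other.

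In untreated TRIF the flanking genes did not stand out. With limma and Benjamini-Hochberg adjustment over all kept probes, 10 of 285 flanking probes (3.51%) passed an adjusted p of 0.05 against the mean of WT and MYD88, where 3.59 percent of all probes tested passed. Of the 10, 3 were higher, with a background of 1.93 percent, and 7 lower, with a background of 1.66 percent. The rest of chromosome 17 gave 32 of 1075 (2.98%), and probes of other chromosomes 978 of 26999 (3.62%). On every hour the TRIF array lay above, or below, both the WT and the MYD88 array for 7 of the called flanking probes (2.46%), against a background of 2.39 percent. The largest difference of a called flanking probe was 0.7, so that none of the 10 reached 2-fold, a size that 0.19 percent of all probes reached and that was counted after the data had been seen. The median difference was 0, as in the rest of the chromosome, and the median absolute difference was 0.1 in both. At an unadjusted p under 0.05 there were 40 flanking probes (14%), against 18.2% of all probes. The count was 1 without hour as a block (0.345% of all probes), 0 with loess normalisation alone (0.0986%, limma), 26 with slide and 27 with scan day as a fixed block, where 10.2% and 9.96% of all probes passed. It was 3 without the TRIF array of 1 h or of 8 h, 4 without that of 4 h or of 16 h, and 6 without the WT array of 2 h or of 4 h or the MYD88 array of 8 h, so single arrays decide it. Over all probes these 7 fits called 1.03% to 3.14%.

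In untreated dko more flanking genes differed, and so did genes along the whole chromosome. Of 285 flanking probes, 62 passed (21.8%), against a background of 16.8 percent of all probes tested. Of these, 32 were higher, with a background of 9.3 percent, and 30 lower, with a background of 7.5 percent. The rest of chromosome 17 gave 266 of 1075 (24.7%) and other chromosomes 4431 of 26999 (16.4%). The flanking share was thus above that of other chromosomes and below that of the remaining chromosome 17. On every hour the dko array lay outside both others on the same side for 41 flanking probes (14.4%), with a background of 10.4 percent, and the rest of the chromosome gave 164 (15.3%). Of the 41, 23 were higher (background 5.62 percent) and 18 lower (background 4.73 percent). Among probes on 1 side at every hour, those with a fitted difference of at least 2-fold were also counted, a size chosen after the data had been seen. The fitted difference is an average over hours and was smaller at single hours for some, as at 1 h for Trem1 (0.09) and Foxp4 (-0.11). The flanking count was 12 (4.21%), against 45 (4.19%) in the rest of the chromosome, 436 (1.61%) on other chromosomes and a background of 1.75 percent. By that count chromosome 17 as a whole, with 60 of 1387 probes (4.33%), ranked 1 of 20 chromosomes in dko, ahead of chromosome 1 with 3.81%. These 1387 probes include the 27 kept probes left out by name, Ticam1 itself among them. In TRIF the same count gave 1 of 1387 (0.0721%), rank 16. Without the dko array of 8 h, 41 flanking probes were called (14.4%, against 11.2% of all probes), and without hour as a block 35 (12.3%, against 6.14%). These shares are descriptions, and the difference between the stretches was not tested. The 12 probes belong to 11 genes, which are described below by their roles together with 5031415H12Rik, the next by size among the genes on 1 side at every hour.

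**Figure D1:**
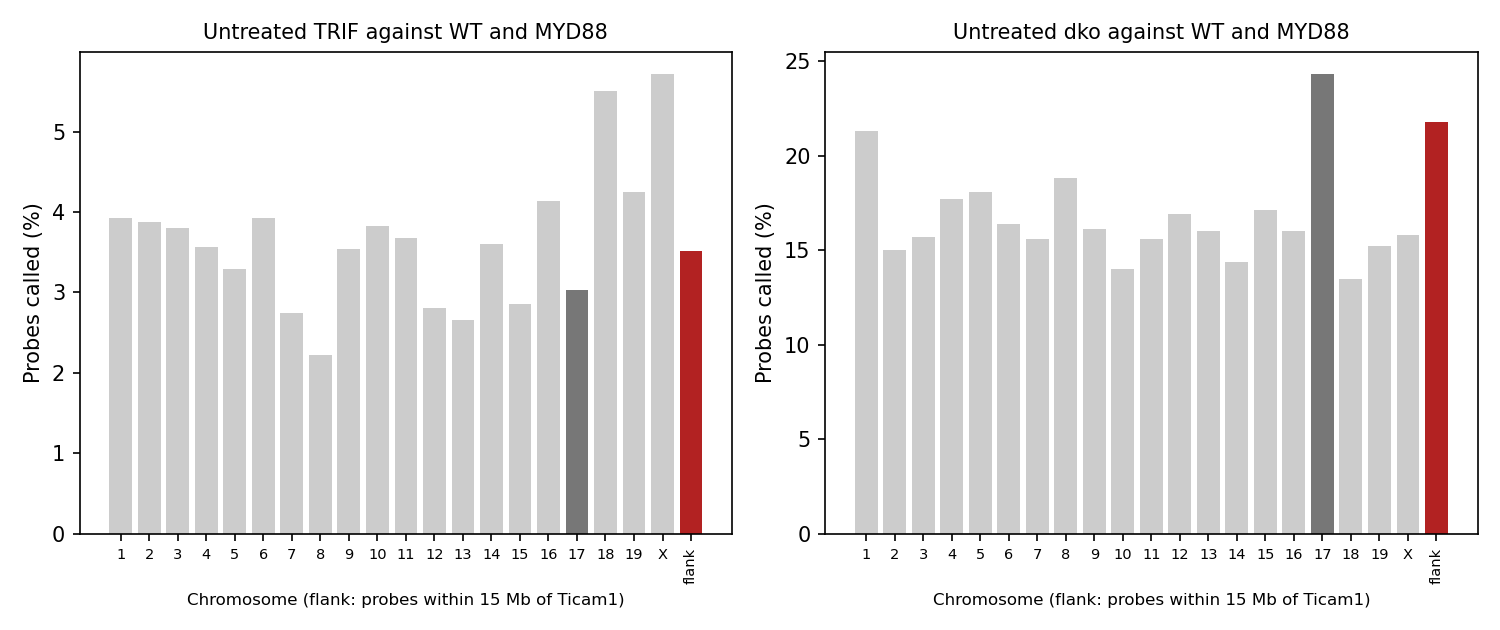
Percent of kept probes called at an adjusted p of 0.05 (limma) on each chromosome and for the probes within 15 Mb of Ticam1 (flank, red), in untreated TRIF (left) and untreated dko (right) against the mean of WT and MYD88. The vertical scales differ. The flank stands at 3.51% in TRIF and 21.8% in dko, where chromosome 17 (dark grey) has the highest share. The chromosome 17 bar includes the flank and the probes left out by name.

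The called probes of dko lay unevenly on both sides of Ticam1. On the side of lower coordinates 52 of 179 probes passed (29.1%), and on the other side 10 of 106 (9.43%). In steps of 5 Mb moving away from Ticam1 toward lower coordinates the shares were 23.8%, 32.3% and 27.3%, and in the other direction 5.88%, 16% and 10%. Beyond 15 Mb the next 5 Mb gave 18.2% and 31.9%, in the same order. The share was lowest in the 5 Mb next to Ticam1 on the side of higher coordinates, where 3 of 51 probes passed. In TRIF the 2 sides gave 6 of 179 (3.35%) and 4 of 106 (3.77%).

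**Figure D2:**
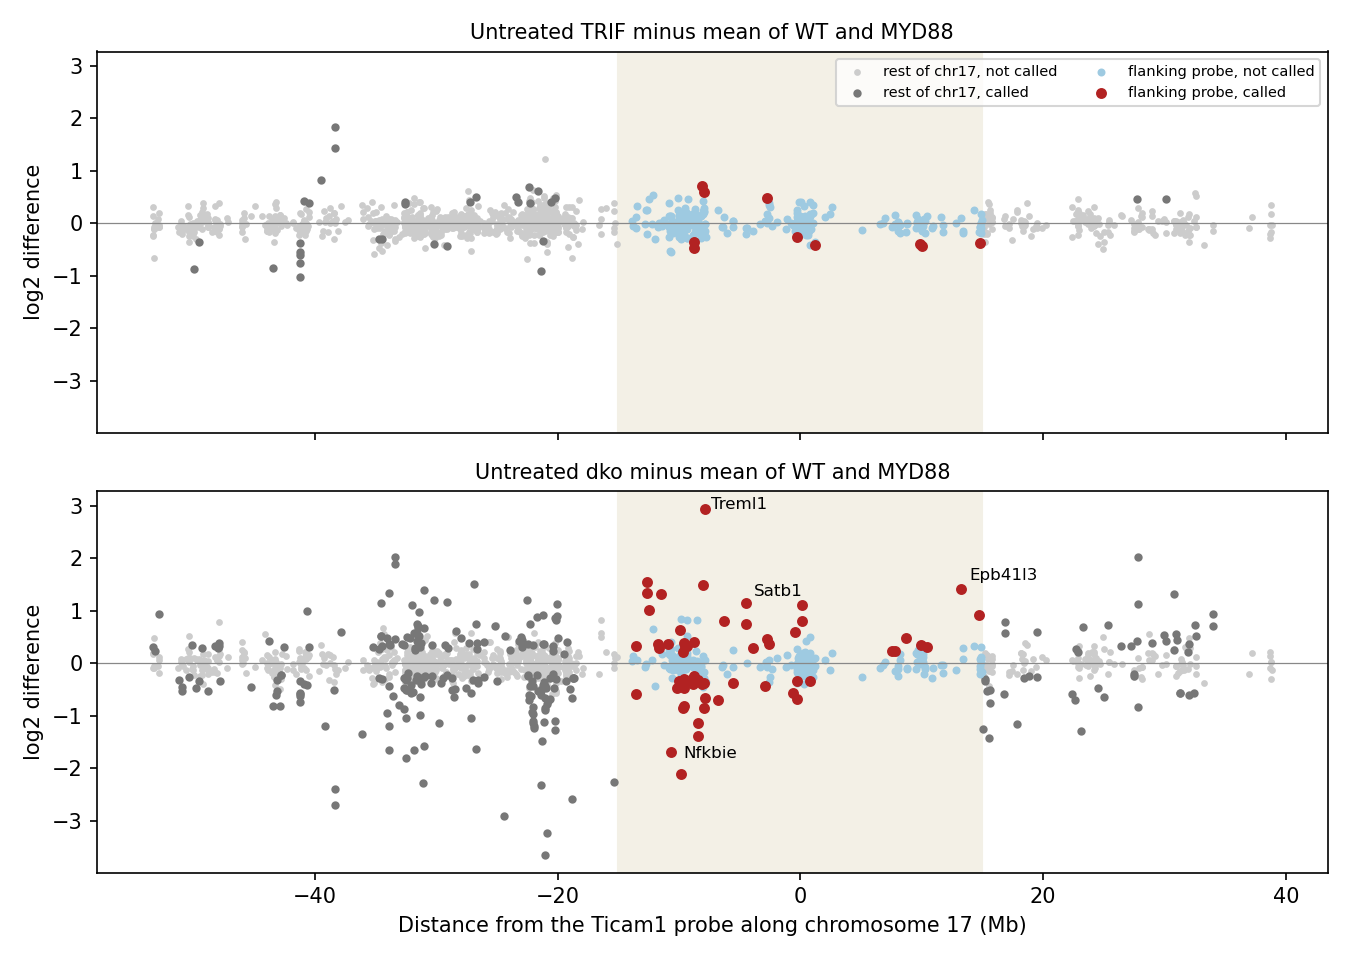
Log2 difference of each kept chromosome 17 probe in untreated TRIF (top) and dko (bottom) from the mean of WT and MYD88, by distance from the Ticam1 probe. The shaded band is 15 Mb to each side. Called flanking probes are red, and in TRIF they stay within 0.7 of 0, while in dko they reach 2.94 at Treml1 and called probes (dark grey) are found along the whole chromosome.

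The 5 kept genes closest to Ticam1 on each side did not pass in either group. Toward lower coordinates these were Fem1a, a substrate receptor of a ubiquitin ligase, A230051N06Rik, NAP093766-001, Dpp9, a dipeptidyl peptidase, and Mydgf, a secreted growth factor. Toward higher coordinates they were Plin3, which coats lipid droplets, TC1725171, Arrdc5, Uhrf1, which maintains DNA methylation, and Kdm4b, a histone demethylase. Their differences in dko ran from -0.23 at A230051N06Rik (adjusted p = 0.10, limma) to 0.15 at Plin3 (adjusted p = 0.15, limma), and in TRIF from -0.23 at Fem1a to 0.4 at Uhrf1. The transcript 9630010G10Rik, also close to Ticam1 but not among these, did pass in dko, at 1.1 (adjusted p = 3.7e-05, limma). By hour it lay 0.66 to 1.63 above the mean of WT and MYD88, and its distance is given below. Of a list of 19 lipid droplet genes and other neighbours of Ticam1, 1 rose and 1 fell in dko (9.3 percent and 7.5 percent over all probes), with a median of -0.08 beside 0.01 over all probes. Ptprs, a receptor tyrosine phosphatase, rose by 0.8 ± 0.14 (SE, adjusted p = 0.0011, limma) on one probe and gave 0.02 on another, and Stap2, a signalling adaptor, fell by 0.35 ± 0.07 (SE, adjusted p = 0.0028, limma). Stap2 was also the called gene of the list in TRIF, where it fell by 0.27 (adjusted p = 0.045, limma).

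The nearest kept probe inside the lower border, Gm9753, differed by 0.04 in TRIF and by 0.04 in dko, and the nearest one outside, DV650784, by -0.39 and 0.12. At the upper border Myl12a, a myosin light chain, lay inside with 0.06 and -0.16. Myom1, a sarcomere protein, lay just outside at 15.07 Mb and fell in dko by 1.25 ± 0.12 (SE, adjusted p = 3.9e-06, limma). The differences in dko thus did not end at 15 Mb.

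Treml1 showed the largest difference of all flanking genes. It encodes a Trem-like receptor known from platelets and megakaryocytes, and its probe lies 7.9 Mb from Ticam1. Its untreated level was 14.43, 14.21, 14.62, 14.17 and 14.1 in dko at 1, 2, 4, 8 and 16 h, against 11.16, 11.89, 11.75, 10.78 and 10.25 in WT. In MYD88 it was 11.82, 12.01, 11.14 and 10.87 at 1, 4, 8 and 16 h, and in TRIF 11.24, 11.92, 11.96, 10.73 and 10.27. Every dko array lay above every array of the other groups, by 2.32 to 3.54 over the mean of WT and MYD88 of its hour, and TRIF tracked WT. The fitted difference was 2.94 ± 0.15 (SE, adjusted p = 7e-09, limma), which is 7.67-fold, and against TRIF it was 3.08 ± 0.17 (SE, adjusted p = 2.5e-08, limma). The difference of TRIF itself was -0.15 ± 0.15 (SE, adjusted p = 0.69, limma).

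The Treml1 difference was as large within the arrays of the same scan. It was 2.6 to 3.23 between dko and MYD88 of 4, 8 and 16 h on the same scan day. The dko array of 1 h lay 3.1 above the mean of the MYD88 arrays of 4, 8 and 16 h that shared its slide. That value mixes unlike hours, and Treml1 in MYD88 was lower at 8 and 16 h than at 1 h. Eif2s3y was alike in TRIF and dko, and Treml1 differed by 3.08 between them. Whether sex-linked expression bears on the Treml1 level was not tested. Of 6 markers of megakaryocytes and platelets, 3 were well above background on every array and Gp9 on none. Their summed level was 14.16 to 14.83 in dko, below or within the 14.26 to 15.67 of WT, and Pf4, a platelet chemokine that these cells also hold, fell in dko by 0.93 ± 0.11 (SE, adjusted p = 4e-05, limma). In RNA of whole cultures, more cells of a type and more RNA per cell cannot be told apart.

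LPS-treated WT lay below untreated WT in Treml1 from 2 h on, and in dko the 2 channels stayed close. The log2 ratio of LPS-treated over untreated cells was 0.28, -0.85, -1.49, -1.88 and -1.04 in WT, and averaged 0.01 ± 0.2 (SD, n = 5) in dko. LPS-treated dko lay 4.06 ± 0.31 (SE, adjusted p = 2.5e-06, limma) above LPS-treated WT and MYD88. In TRIF the ratio averaged -1.41 ± 0.76 (SD, n = 5) and in MYD88 -1.03 ± 0.69 (SD, n = 5).

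**Figure D3:**
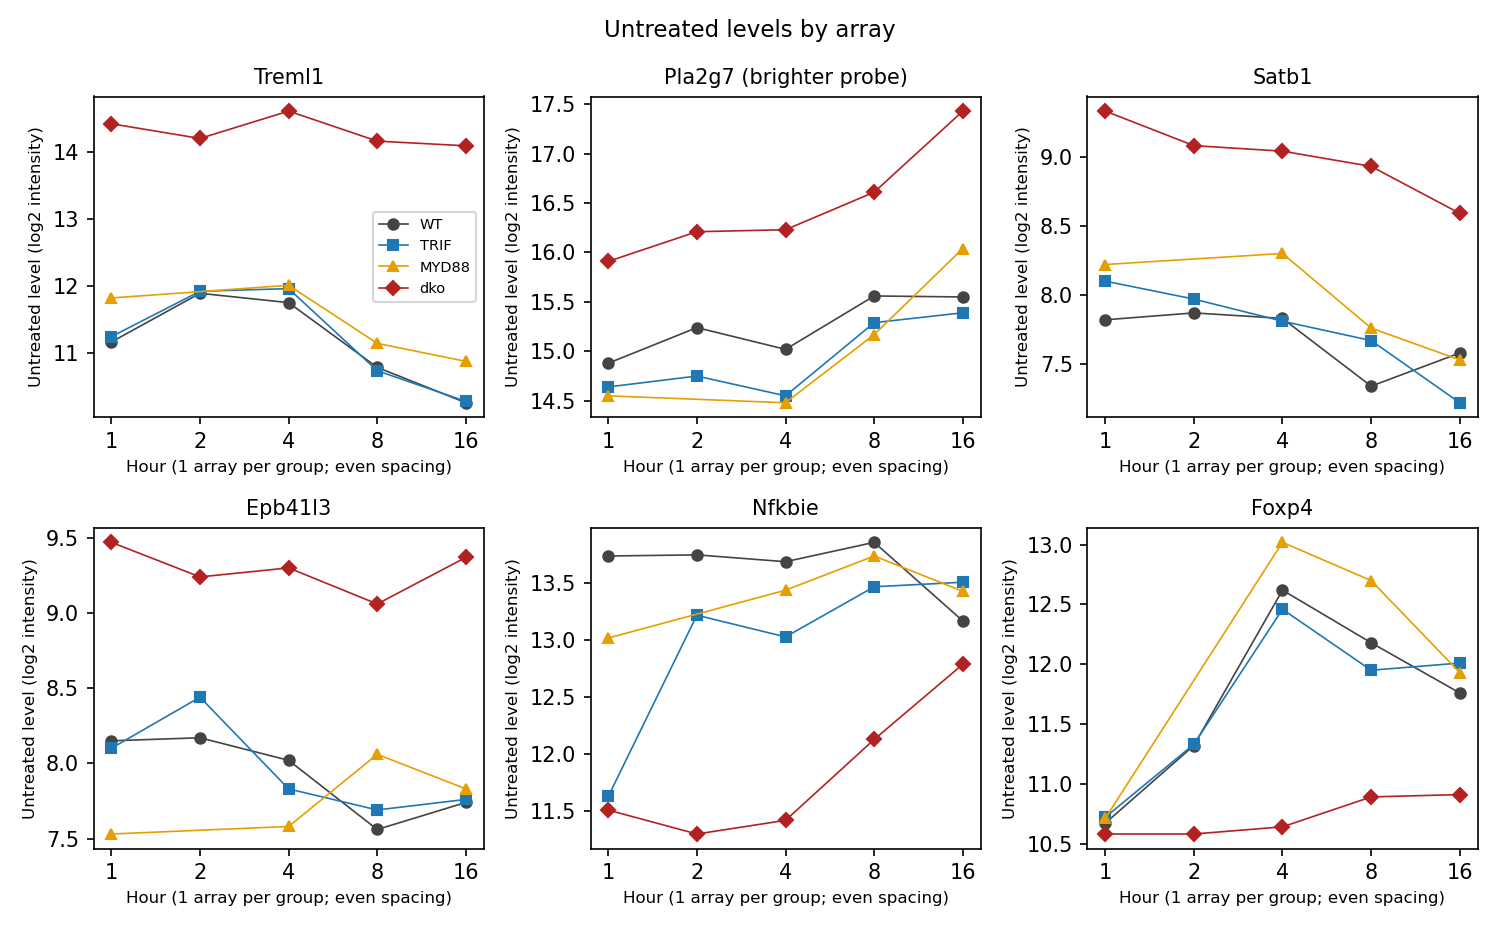
Untreated levels (log2 intensity, vertical scales differ) of 6 flanking genes by hour, 1 point per array, in WT, TRIF, MYD88 (no value at 2 h) and dko. The dko arrays lie apart at every hour for Treml1, Pla2g7, Satb1 and Epb41l3, approach the others at 16 h for Nfkbie, and start at the level of the others at 1 h for Foxp4.

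Of the other Trem genes, all within 0.12 Mb of Treml1, only the Trem1 probe was also called higher in dko (limma). Trem2, a lipid-sensing receptor of macrophages, was bright in all groups at 17.58 to 18.77 and differed by -0.37 ± 0.12 (SE, adjusted p = 0.048, limma) in dko, a call that was lost when any of 16 of the 19 arrays was left out. Treml2 fell by 0.86 ± 0.2 (SE, adjusted p = 0.009, limma) on its brighter probe, a call lost with loess normalisation alone (-0.59, adjusted p = 0.24, limma), with slide as a random or fixed block (adjusted p = 0.094 and 0.20, limma) and with scan day (adjusted p = 0.21, limma). On its dimmer probe no dko array was well above background. The pooled mean of the WT and MYD88 arrays was at least 1.28-fold higher (adjusted p = 0.18, limma), while MYD88 alone averaged 1.12-fold above dko over matched hours. Trem3, an activating receptor, gave -0.46 (adjusted p = 0.10, limma) and Treml4, which binds dying cells, 0.13 (adjusted p = 0.50, limma). MYD88 lay below WT for Treml2 on its own, at -0.93 ± 0.25 (SE, adjusted p = 0.03, limma).

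The Trem1 probe rose by 1.49 ± 0.24 (SE, adjusted p = 0.00047, limma) in dko. Trem1 amplifies inflammatory signals in neutrophils and monocytes. Its level was 11.68, 12.07, 12.04, 11.81 and 11.54 in dko against 11.68, 11, 10.25, 10.54 and 10.15 in WT and 11.5, 9.82, 9.19 and 9.1 in MYD88 at 1, 4, 8 and 16 h, so the groups met at 1 h and parted later. The repeat of this probe runs on in probes of 4 genes elsewhere, and all 4 also rose in dko: Fubp3 by 0.91 ± 0.19 (SE, adjusted p = 0.0045, limma), Msl1 by 1.05 ± 0.19 (SE, adjusted p = 0.0016, limma), Gm4146 by 1.3 ± 0.2 (SE, adjusted p = 0.00042, limma) and E430010N07Rik by 1.45 ± 0.31 (SE, adjusted p = 0.0044, limma). Whether the Trem1 signal is that of Trem1 cannot be told from this probe. In all, of 7 listed Trem genes 6 were kept, with 2 higher and 2 lower in dko (9.3 percent and 7.5 percent over all probes), a median of -0.12 beside 0.01 over all probes, and none called in TRIF (limma), where also none had an unadjusted p under 0.05.

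**Figure D4:**
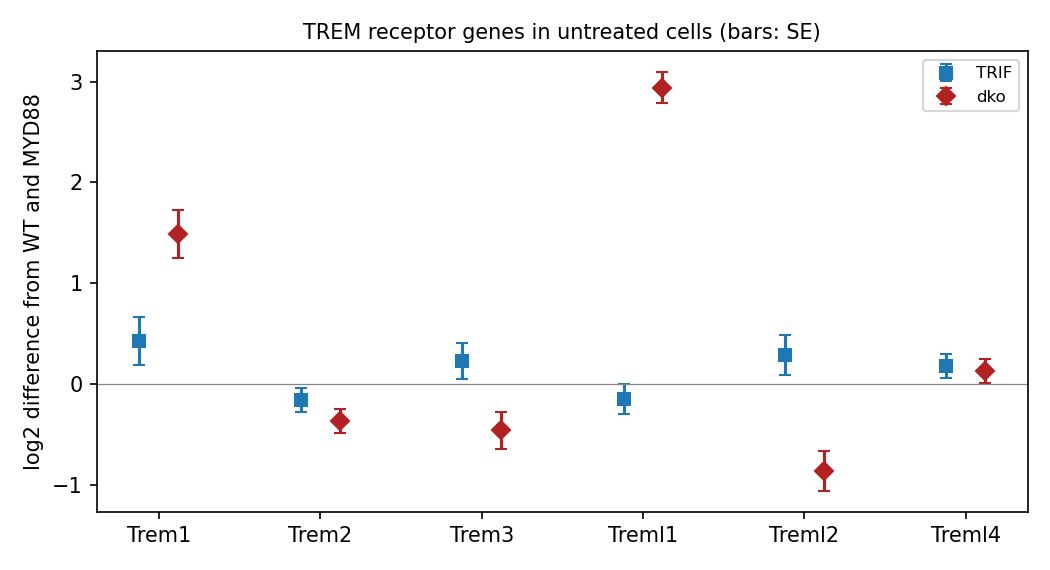
Fitted log2 difference (± SE) of the 6 kept Trem genes, 1 probe each, in untreated TRIF and dko from the mean of WT and MYD88. Treml1 stands at 2.94 in dko and -0.15 in TRIF. The Trem1 point is that of the repeat-holding probe.

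Among the genes with roles at the cell surface and in lipid metabolism, Pla2g7, which inactivates platelet-activating factor, rose in dko on both of its probes, 12.68 and 12.66 Mb from Ticam1. On the first the level was 12.15, 12.13, 12.34, 13.08 and 14.68 in dko, against 11.15, 11.01, 10.99, 11.57 and 12.25 in WT and 10.35, 10.65, 11.7 and 12.8 in MYD88. Each dko array lay above the others of its hour, while the ranges over all hours overlapped because the level climbed with time in each group. The difference was 1.55 ± 0.19 (SE, adjusted p = 4.1e-05, limma), and 1.34 ± 0.12 (SE, adjusted p = 2.1e-06, limma) on the brighter probe, where TRIF gave -0.21. Cyp39a1, an oxysterol hydroxylase at 12.52 Mb from Ticam1, rose by 1.02 ± 0.17 (SE, adjusted p = 0.00055, limma). Its level at 16 h was below that at 1 h in every group, with 9.27 after 12.48 in dko and 8.43 after 10.43 in WT, and its call was lost without hour as a block (adjusted p = 0.31, limma).

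Of the list of macrophage and leukocyte surface and signalling genes, 3 of 11 rose and 1 fell in dko, beside 9.3 percent and 7.5 percent of all probes, with a median of -0.05 beside 0.01 over all probes. Besides Pla2g7, Rftn1, which links lipid rafts, rose by 0.8 ± 0.13 (SE, adjusted p = 0.00049, limma) and Adgre4, an adhesion receptor of macrophages, by 0.59 ± 0.07 (SE, adjusted p = 5.5e-05, limma). Dennd1c, an exchange factor for Rab proteins, fell by 0.35 (adjusted p = 0.028, limma). Epb41l3, a membrane skeleton protein 13.23 Mb beyond Ticam1, was outside the lists and rose by 1.42 ± 0.13 (SE, adjusted p = 2.3e-06, limma). Its levels were 9.47, 9.24, 9.3, 9.06 and 9.37 in dko, against 8.15, 8.17, 8.02, 7.56 and 7.74 in WT, 7.53, 7.58, 8.06 and 7.83 in MYD88, and 7.69 to 8.44 in TRIF. No dko array overlapped another group.

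Among transcription and chromatin genes 5 of 21 rose and 3 fell in dko, where 9.3 percent of all probes were called higher and 7.5 percent lower, with a median of 0 beside 0.01 over all probes. Satb1, an organiser of chromatin loops, changed most of those that rose. Its levels were 9.33, 9.08, 9.04, 8.93 and 8.59 in dko against 7.82, 7.87, 7.83, 7.34 and 7.58 in WT, 8.22, 8.3, 7.76 and 7.53 in MYD88, and 7.22 to 8.1 in TRIF, so that all dko arrays lay above all others. The difference was 1.15 ± 0.09 (SE, adjusted p = 3.6e-07, limma). Taf8 rose by 0.4, Kat2b, Cdc5l and Runx2 by 0.36 each, and Nfya, a subunit of the CCAAT-binding factor, fell by 0.66 ± 0.11 (SE, adjusted p = 0.00094, limma). Trerf1 fell by 0.3. None of the 21 was called in TRIF (limma), where 2 had an unadjusted p under 0.05.

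Foxp4, a forkhead factor, lay close to the other groups in dko at 1 h and below them later. On the probe with the named difference its level was 10.58, 10.58, 10.64, 10.89 and 10.91 in dko, against 10.67, 11.32, 12.62, 12.18 and 11.76 in WT and 10.71, 13.02, 12.7 and 11.93 in MYD88. The dko arrays stayed within 10.58 to 10.91 while untreated WT, TRIF and MYD88 stood higher at 4 h and later than at 1 h, and the difference was -0.11 at 1 h and -2.18 at 4 h. LPS raised the same probe in WT by 1.58, 2.24, 1.62 and 1.33 from 2 to 16 h and moved dko by 0.07 ± 0.05 (SD, n = 5). Untreated and LPS-treated RNA shared each array, and what part the other channel had in the untreated values was not tested. The difference was -1.14 ± 0.2 (SE, adjusted p = 0.0012, limma), and -1.39 ± 0.23 (SE, adjusted p = 0.00073, limma) on the probe that overlaps it, while the third, dimmer probe gave -0.25 (adjusted p = 0.069, limma).

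Nfkbie, which encodes an inhibitor of NF-kappaB that the factor itself induces, was lower in dko. Its levels were 11.51, 11.3, 11.42, 12.13 and 12.79 in dko against 13.74, 13.75, 13.69, 13.86 and 13.17 in WT and 13.02, 13.44, 13.74 and 13.43 in MYD88. All dko arrays lay below all WT and MYD88 arrays, and the gap shrank to 0.51 at 16 h. TRIF lay between dko and the other groups at 1, 2, 4 and 8 h, at 11.63, 13.22, 13.03 and 13.47, and above all of them at 16 h, at 13.51. The difference in dko was -1.69 ± 0.25 (SE, adjusted p = 0.00028, limma) and was -3.55 ± 0.42 (SE, adjusted p = 8.1e-05, limma) in LPS-treated cells. The mean log2 ratio of LPS-treated over untreated cells was 1.7 in WT, 1.85 in TRIF, 2.23 in MYD88 and 0.11 in dko. As for Foxp4, what part the other channel had in the untreated values was not tested.

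The Gm9706 probe fell by 2.11 ± 0.38 (SE, adjusted p = 0.0015, limma) in dko. The Isg15 probe that shares its letters gave -0.73 ± 0.22 (SE, adjusted p = 0.036, limma) in dko. Its mean was 15.18 in dko and 15.19 in MYD88, against 16.72 in WT, so dko was level with MYD88. In TRIF the same Isg15 probe gave 1.19 ± 0.22 (SE, adjusted p = 0.011, limma). Another Isg15 probe gave -2.52 ± 0.2 (SE, adjusted p = 6.5e-07, limma) in dko. The Gm9706 value of TRIF ran from 13.11 at 2 h to 17.51 at 16 h, below WT at the first 3 hours and above it at the last 2. The mean log2 LPS ratio of the Gm9706 probe was 1.16 in WT, 0.64 in TRIF, 1.96 in MYD88 and 0.01 in dko. Here too the part of the other channel in the untreated values was not tested. The remaining named transcripts rose in dko and have no role given here. ENSMUST00000097320, at 11.53 Mb from Ticam1, rose by 1.31 ± 0.12 (SE, adjusted p = 3e-06, limma) and 9630010G10Rik, at 0.16 Mb, by 1.1 ± 0.13 (SE, adjusted p = 3.7e-05, limma). 5031415H12Rik, at 14.69 Mb, rose by 0.91 ± 0.07 (SE, adjusted p = 8.4e-07, limma) and was at least 2.1-fold above TRIF, where no array was well above background. It was well above background on 3 of 5 WT arrays, and its size depended on the processing, with 1.46 under loess alone and 2 from the processed signal.

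The last 2 lists are read against the same 9.3 percent of all probes called higher and 7.5 percent called lower in dko. Of 9 mitochondrial genes Mrps18a, a subunit of the mitochondrial ribosome, fell by 0.48 ± 0.07 (SE, adjusted p = 0.00024, limma) in dko and the others were not called, with a median of 0. Of 9 genes of small GTPases and trafficking, Cul7 and Rab12 rose by 0.38 and 0.31, and Cul9 and Tbc1d5 fell by 0.38 each, with a median of 0.03. Neither list had a call in TRIF (limma), where none and 1 of the genes had an unadjusted p under 0.05. Among 42 flanking genes with several kept probes, 15 had a probe called in dko, in 4 of them all probes were called, and in 3 (Cnpy3, Cul9 and Klc4) another probe had the opposite sign.

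In TRIF the 7 genes on the same side at every hour changed by 0.36 to 0.7. A530064D06Rik rose by 0.7 ± 0.12 (SE, adjusted p = 0.0056, limma) and lies 8.12 Mb from Ticam1. Its level was 10.57, 11.21, 10.53, 12.34 and 13.28 in TRIF against 10.18, 10.49, 10.26, 11.72 and 12.49 in WT and 10.02, 10.04, 11.24 and 12.29 in MYD88, so each array lay above its hour's others while all groups climbed. In dko the same probe fell by 0.39 ± 0.12 (SE, adjusted p = 0.035, limma), the other way. B430306N03Rik, 7.94 Mb away inside the Trem cluster, rose by 0.59 ± 0.1 (SE, adjusted p = 0.0083, limma), and its dimmer probe gave 0.22 (adjusted p = 0.27, limma).

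Rab5a, a GTPase of early endosomes, rose in TRIF and in dko. Its level was 12.84, 12.51, 12.47, 12.46 and 12.67 in TRIF and 12.71, 12.67, 12.68, 12.32 and 12.47 in dko, against 12.5, 12.33, 12.09, 12.1 and 12.33 in WT and 11.69, 11.9, 12.01 and 12.16 in MYD88. The difference was 0.48 ± 0.1 (SE, adjusted p = 0.016, limma) in TRIF and 0.46 ± 0.1 (SE, adjusted p = 0.004, limma) in dko, and both comparisons share the WT and MYD88 arrays. A second, brighter Rab5a probe gave 0.18 (adjusted p = 0.25, limma) and 0.03 (adjusted p = 0.87, limma), so the probes disagree. AI661453, called lower in TRIF on both of its probes, was also called lower in dko on both, though not at every hour. The differences in dko were -0.24 ± 0.08 (SE, adjusted p = 0.046, limma) and -0.3 ± 0.09 (SE, adjusted p = 0.037, limma). Against WT alone the probes averaged -0.03 and 0.04 in dko and -0.14 each in TRIF. Against MYD88 they averaged -0.45 and -0.58 in dko and -0.58 and -0.86 in TRIF, so the calls came mainly from a higher level in MYD88.

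Adgre1, the macrophage antigen F4/80, fell in TRIF by 0.41 ± 0.09 (SE, adjusted p = 0.028, limma). Its levels were 17.04 to 17.36 in TRIF, 17.32 to 17.61 in WT and 17.31 to 18.06 in MYD88, and the other macrophage marker Csf1r differed by -0.02. Twsg1, a secreted binder of bone morphogenetic proteins, fell by 0.4 ± 0.1 (SE, adjusted p = 0.037, limma), Ankrd12, a nuclear cofactor, by 0.43 ± 0.1 (SE, adjusted p = 0.032, limma) and AI661453 by 0.36 ± 0.08 (SE, adjusted p = 0.023, limma). Over matched hours TRIF averaged -0.17 against WT and -0.69 against MYD88 for Ankrd12, and -0.14 and -0.58 for AI661453. Most of these 2 falls was thus against MYD88. For Twsg1 the values were -0.5 against WT and -0.31 against MYD88. The other probes of Adgre1 and Ankrd12 gave -0.35 (adjusted p = 0.089, limma) and -0.12 (adjusted p = 0.60, limma), and that of AI661453 gave -0.47 ± 0.09 (SE, adjusted p = 0.012, limma). These calls rest on few arrays: of the 19 fits that leave out 1 array, the call was lost in 11 for Twsg1, 10 for Ankrd12, 6 for Adgre1, 3 for AI661453 and 2 for Rab5a, and in none for A530064D06Rik and B430306N03Rik. Without hour as a block, and with loess normalisation alone, 6 of the 7 and all 7 were lost. The Adgre1 call was also lost with slide as a random block (-0.37, adjusted p = 0.062, limma), with slide as a fixed block (-0.29, adjusted p = 0.15, limma) and with scan day (-0.22, adjusted p = 0.20, limma). Ankrd12 was lost with slide fixed (adjusted p = 0.063, limma) and Twsg1 with the processed signal (adjusted p = 0.058, limma).

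**Figure D5:**
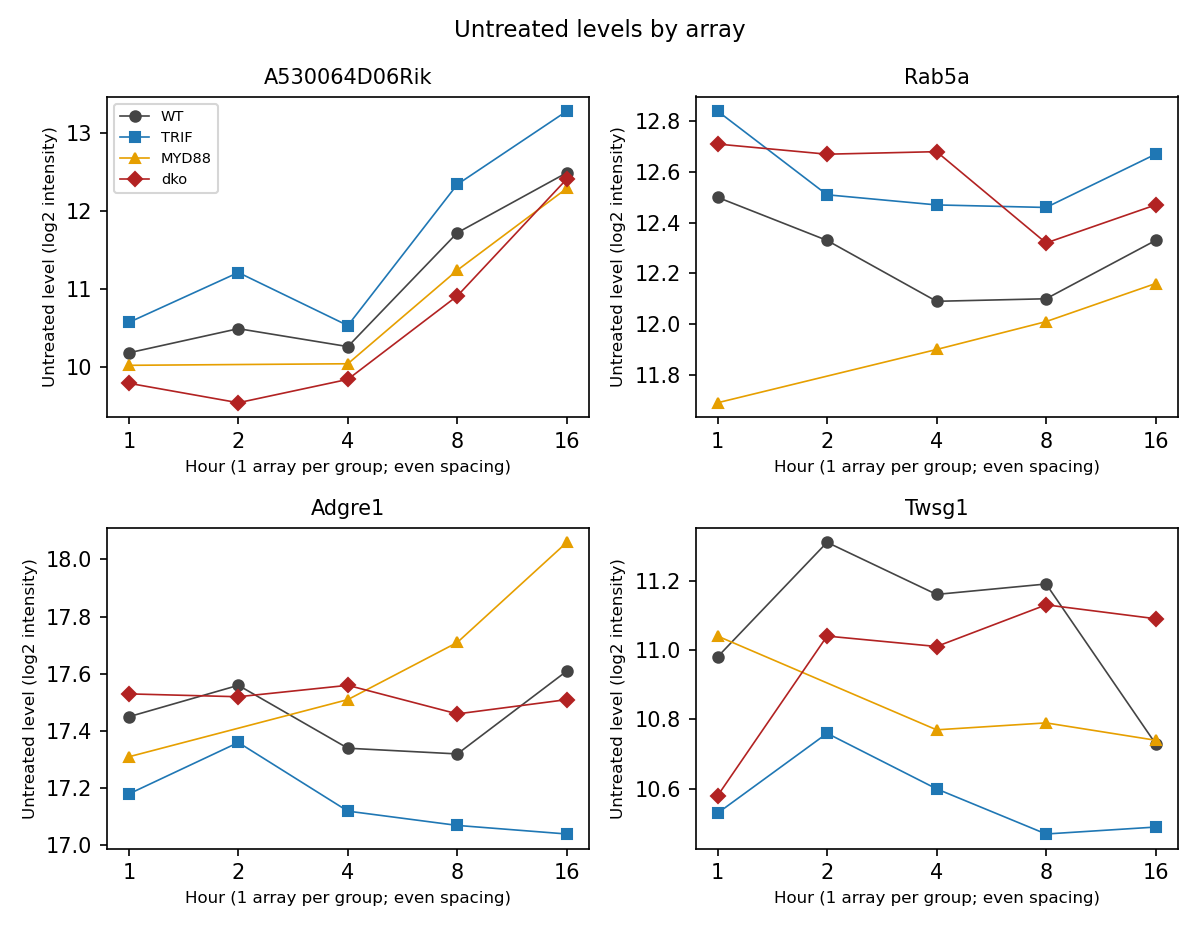
Untreated levels (log2 intensity, vertical scales differ) of 4 of the 7 genes called in TRIF, by hour, 1 point per array. The TRIF arrays lie above WT and MYD88 at every hour for A530064D06Rik and Rab5a and below them for Adgre1 and Twsg1, with differences of 0.4 to 0.7.

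Direct comparison of dko with TRIF, whose contrast holds neither WT nor MYD88, called 77 of 285 flanking probes (27%) against a background of 23 percent, 318 of 1075 (29.6%) on the rest of the chromosome and 22.7% elsewhere. Of these, 14 flanking probes differed at least 2-fold (4.91%), where 3.13 percent of all probes did. MYD88 against WT, neither of which carries the TRIF label, called 29 flanking probes (10.2%) against a background of 9.53 percent. That last count moved from 9 without the 8 h array of WT, or without the 8 h or 16 h array of MYD88, to 53 without the MYD88 array of 1 h, where 3.49% to 3.93% and 15.8% of all probes were called.

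In LPS-treated cells no flanking probe was called in TRIF (limma), where 0.296 percent of all probes were, and 29 of 285 had an unadjusted p under 0.05. Without the MYD88 array of 1 h the count was 5 (1.75%, against 2.53% of all probes). In LPS-treated dko, 80 flanking probes were called (28.1%) against a background of 29.7 percent and 34.4% in the rest of the chromosome, so the flanking share was near that of all probes. Without the dko array of 8 h the count was 51 (17.9%, against 16.6% of all probes). All 12 named genes were called there in the direction they had in untreated cells. Both channels came from the same arrays, so these calls are not separate evidence. For some genes LPS moved WT and MYD88 but hardly dko, which enters the differences. The mean log2 ratio in WT, MYD88 and dko was 1.7, 2.23 and 0.11 for Nfkbie and -1, -1.03 and 0.01 for Treml1. For Epb41l3 it was 0.24, -0.05 and -0.06. Satb1 differed by 1.35 ± 0.14 (SE, adjusted p = 3.9e-05, limma), Epb41l3 by 1.3 ± 0.15 (SE, adjusted p = 7.8e-05, limma) and Pla2g7 by 1.16 ± 0.15 (SE, adjusted p = 0.00016, limma), beside 1.15, 1.42 and 1.55 in untreated cells. In dko, LPS moved these 3 genes by 0.11 ± 0.12, -0.06 ± 0.08 and -0.1 ± 0.12 (SD, n = 5).

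The count of called flanking probes in dko depended on how slides were treated. Only the dko array of 1 h shared a slide with another group, MYD88. With slide as a fixed block 24 were called (8.42%, against 8.04% of all probes), with slide as a random block 36 (12.6%, against 7.65%), and with loess normalisation alone 21 (7.37%, against 4.4%). With slide fixed, Treml1, Pla2g7 and 5 others of the 12 stayed called, while Nfkbie gave -0.53 (adjusted p = 0.74, limma) and Foxp4 -0.42 (adjusted p = 0.71, limma), and Epb41l3 (adjusted p = 0.075, limma), Satb1 (adjusted p = 0.068, limma) and Trem1 (adjusted p = 0.096, limma) lost their calls at values of 1.42, 0.93 and 1.48. With slide fixed, 9630010G10Rik, Cyp39a1 and Gm9706 moved to 2.11, 2.43 and -3.97. With scan day as a block Gm9706 was lost at -1.21 (adjusted p = 0.23, limma) and Trem1 moved to 2.36. Foxp4 was also lost without hour as a block (adjusted p = 0.064, limma) and with loess alone (adjusted p = 0.060, limma). Between dko and MYD88 of the same scan day, at 4, 8 and 16 h, the differences were 0.99 for Satb1, 1.42 for Epb41l3, 1.65 for Pla2g7, -1.42 for Nfkbie and -1.74 for Foxp4.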

How the data were processed

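RNA was hybridised to 20 Agilent 2-colour arrays. The authors deposited scanner output, 1 file per array. Per the file headers, the values are spot and local background intensities from Agilent Feature Extraction 10.10.1.1, with probe positions on mm9. No other processing by the authors was used here. With limma 3.58.1 in R 4.3.3, mean intensities were corrected against the median background (normexp, offset 50), normalised by loess within and Aquantile between arrays, and averaged per probe. Control spots and outlier spots were left out. Kept were probes that 3 or more arrays showed well above background in either channel. The Cy3 channel of 19 arrays (untreated) and the Cy5 channel (LPS) were fitted separately over the 4 groups, with hour as a block. Adjustment was over all kept probes (Benjamini-Hochberg, threshold 0.05). Hours are the only replicates of a group and their effect is removed as a block, so each group's difference is an average over hours.

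Hours pair the arrays by the labels. In all 27 same-hour pairs of arrays the deviations from the group means correlated over 0.1, with a median of 0.5. A "called" probe passed the threshold, and "every hour" means above, or below, both the WT and MYD88 array of that hour (WT alone at 2 h). A lower bound on a fold sets the brighter group's mean against the higher of the dim probe's own signal and the lowest signal well above background on each array. Named were Treml1, the 12 genes with the largest difference among those called and on 1 side at every hour in each group, the 5 kept genes nearest to Ticam1 on each side, all Trem genes, examples of 6 gene lists (1 probe per gene, the brightest), and the probes at the borders. The members and lists were chosen with earlier results of these data known. Gene names come from the files, updated through accessions in a RefSeq table (GRCm38.p6, names only): of the 362 probes, 255 were named by accession, 34 by symbol and 4 by synonym, and 69 kept the file's name. Whether a probe lies in an exon or a UTR is not given here, because no mm9 annotation was used. The fit was tested on simulated data with known answers. Alternatives changed the background correction, the normalisation, the filter on dim probes, the block, slide and scan day, the samples in the fit, the probes per gene and the use of the swapped array, and left out each array in turn.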

Additional observations from a re-analysis of the deposited data

Results flagged for a closer look

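Single arrays stood apart from the other arrays of their group by Dixon's criterion in 13 of the 168 group levels examined, over 42 probes. Chance alone flags about 1 in 20 groups, and 7 of the 13 were arrays of 1 h and 4 of 16 h, the ends of the time course. Nfkbie in TRIF at 1 h was 11.63, where the next array stood at 13.03, and in WT at 16 h it was 13.17 against 13.69. Trem3 in TRIF at 16 h was 8.86 against 7.42, and the dimmer Treml2 probe in WT at 16 h 8.15 against 7.3. Ankrd12 was 11.46 in WT at 4 h against 10.79, and on its other probe 9.82 in MYD88 at 1 h against 10.74 and 9.83 in dko at 1 h against 10.97. Twsg1 in dko at 1 h was 10.58 against 11.01, the other AI661453 probe in WT at 2 h 9.14 against 8.51, and the dimmer B430306N03Rik probe in dko at 16 h 9.92 against 8.66. Next to Ticam1, Fem1a in WT at 1 h was 12.96 against 13.67, Dpp9 in MYD88 at 1 h 11.8 against 11.33, and Kdm4b in MYD88 at 1 h 11 against 11.49.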

How the results depend on the processing

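None of the differences named for the 12 genes in dko and the 7 genes in TRIF changed sign under any alternative run. Some differences of other named probes, which were not called, did change sign. In dko, A230051N06Rik ran from -0.85 to 0.46, Fem1a from -0.22 to 0.4, Trem3 from -1.56 to 0.17 and Treml4 from -0.63 to 0.63. In TRIF, Mydgf ran from -0.23 to 0.07 and Trem1 from -0.1 to 0.45. Without the replicate block (hour), the called flanking probes numbered 1 in TRIF, 35 in dko, 2 in MYD88 against WT, 32 in dko against TRIF and 46 in LPS-treated dko, and 1 was on 1 side at every hour in TRIF. With loess alone these counts were 0, 21, 0, 35, 49 and 0, and 16 in dko at every hour. With slide as a random block there were 36 in dko, 5 in MYD88 against WT, 37 in dko against TRIF and 29 in LPS-treated dko. With slide as a fixed block there were 26 in TRIF, 24 in dko, 8 in MYD88 against WT, 39 in dko against TRIF, 0 in LPS-treated dko (limma) and 17 in dko at every hour. With scan day there were 27 in TRIF, 3 in MYD88 against WT, 51 in dko against TRIF, and 11 and 27 at every hour in TRIF and dko. The processed signal gave 10 in MYD88 against WT. For 1 side at every hour with a fitted difference of at least 2-fold, it gave 1 in TRIF and 20 in dko. Only the groups compared gave 13 in MYD88 against WT and 13 at every hour in TRIF. Leaving out 1 array gave 3 to 14 in TRIF, 41 to 68 in dko, 9 to 53 in MYD88 against WT, 56 to 83 in dko against TRIF, 0 to 5 and 51 to 95 in LPS-treated TRIF and dko, 2 to 11 and 38 to 57 at every hour in TRIF and dko, and 0 and 11 to 13 of at least 2-fold. In all 31 alternatives for untreated dko the flanking share was above that of other chromosomes, and in 2 it was above the rest of chromosome 17. The 15 kept flanking probes with no dko array well above background have only bounds there.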
